A study of Mus musculus with 9 samples.

Results

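The genes described are Reep3 and 8 further genes whose proteins shape the endoplasmic reticulum (ER): Reep4, Reep5, Reep6, Atl2, Atl3, Rtn3, Rtn4 and Ckap4. They were taken by symbol from the deposited table of raw counts, which held 28111 genes, and all 9 were in it. Reep3 was selected on its own counts, because it separated the genotypes of these same libraries well. In a model without the mouse group it had the smallest p after Slc2a1 among 12320 tested genes whose symbol is not a predicted one, and with the mouse group in the model it ranked 6. The other 8 genes were added as relatives in function. The genotype values of Reep3 are therefore a description with no test, and nothing is read from the share of the 9 genes that differed by genotype.

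RNA sequencing covered the mRNA of induced regulatory T cells, which are CD4 T cells that switch on the transcription factor Foxp3 in culture, all of C57BL/6J background. Of the 9 libraries, 4 came from mice with a Glut1 transgene (Glut1Tg), which codes for a glucose transporter, and 5 from wild-type mice (WT). A mouse group is labelled too. Mouse group 2 was made up of Glut1Tg replicate 1 and WT replicates 2, 4 and 5, and mouse group 1 of Glut1Tg replicates 2 to 4 and WT replicates 1 and 3. The labels do not say how the mouse groups differ, which promoter drives the transgene, how old the mice were, or whether libraries stand for separate animals or cultures. The p-values thus reflect only how far the libraries scatter, and that scatter may be technical.

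Total counts per library ranged from 20881035 to 31196428, and values are CPM, read counts relative to the scaled total of their library, unless stated otherwise. Slc2a1, the gene of the transporter, stood at 260.2 to 496 CPM in Glut1Tg and at 29.7 to 58.7 CPM in WT, so every Glut1Tg library lay above every WT library. The T cell genes Cd3e (288 to 411 CPM in Glut1Tg, 310 to 389.6 CPM in WT) and Foxp3 (621 to 822 CPM in Glut1Tg, 814 to 1164 CPM in WT) were present in every library. Glut1Tg replicate 1 and WT replicate 2, both of mouse group 2, stood apart by their mitosis genes: 22 of these summed to 7855 and 7990 CPM there, against 1409 to 3655 CPM in the other 7 libraries. Glut1Tg replicate 3 stood apart by transcripts of other cells: 14 mast cell and basophil genes summed to 5345 CPM in it, against 123 to 976 CPM in the other Glut1Tg libraries and 138 to 2370 CPM in WT. Of these 14 genes, Tpsab1 had no count in 5 libraries and the protease gene Cpa3 reached 1670 CPM in Glut1Tg replicate 3. The myeloid gene Lyz2 stood at 207 CPM there and at no more than 2.67 CPM elsewhere. In such bulk RNA, fewer cells of a type and less RNA per cell cannot be told apart. Libraries also differed in sex-linked transcripts. In Glut1Tg replicates 2 and 4, both of mouse group 1, Xist stood at 256 and 340.2 CPM and the Y-linked Ddx3y at 0.298 and 0 CPM. The other 7 libraries, every WT library among them, had no more than 1.32 CPM of Xist and at least 57.5 CPM of Ddx3y. These transcripts were thus unbalanced between genotypes and between mouse groups.

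The ER is a single membrane system made of flat sheets and a network of narrow tubules. Reep proteins and reticulons insert hairpins into the membrane and bend it into tubules, atlastins are GTPases that fuse tubules at their junctions, and Ckap4 (CLIMP-63) is a spacer protein of sheets. In human cells Reep3 and Reep4 bind microtubules and keep the ER away from the chromosomes in mitosis. In activated T cells the ER makes surface receptors and cytokines and stores the calcium used in signalling.

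Positions are those of the mouse build mm10. Reep3 (ENSMUSG00000019873) lies on the minus strand of chromosome 10 from 67009189 to 67096945. Its first 821 bases overlap the start of Jmjd1c on the opposite strand. The strand setting of the authors' counting is not given, so reads from that stretch cannot be assigned with certainty. Rtn3 (chromosome 19, 7425901 to 7483281, minus strand) and Atl3 (chromosome 19, 7494040 to 7539674, plus strand) are neighbours that point away from each other, with 10758 bases between them. Rtn4 (chromosome 11, 29692947 to 29744331, plus strand) overlaps Eml6 on the opposite strand by 1284 bases, and Eml6 had no more than 2.05 CPM in any library. Reep6 (80329953 to 80336441, plus strand) and Ckap4 (84526305 to 84534062, minus strand) also lie on chromosome 10, Reep4 on chromosome 14 (70545251 to 70548933, plus strand) and Atl2 on chromosome 17 (79848390 to 79896123, minus strand).

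The 250 bases before the starts of Rtn3, Atl3 and Rtn4 are shown because Rtn3 and Rtn4 differed between mouse groups in opposite directions, as given further on, while Atl3 next to Rtn3 did not pass that test. The sequences are from RefSeq (GRCm38.p6, the assembly that mm10 names), are written 5′ to 3′ on the strand of the gene, and were found for 5 of the 9 genes. They lie at chr19:7483292-7483541 for Rtn3, chr19:7494188-7494437 for Atl3 and chr11:29692648-29692897 for Rtn4, which is 1 of 3 windows listed for that gene. The windows are set by the RefSeq starts, which differ from the outermost starts of the genes given above. That of Atl3 lies further downstream, so the window falls inside the span given for the gene, and those of Rtn3 and Rtn4 lie a little upstream. Capitals mark matches to CCAAT on either strand.
Rtn3: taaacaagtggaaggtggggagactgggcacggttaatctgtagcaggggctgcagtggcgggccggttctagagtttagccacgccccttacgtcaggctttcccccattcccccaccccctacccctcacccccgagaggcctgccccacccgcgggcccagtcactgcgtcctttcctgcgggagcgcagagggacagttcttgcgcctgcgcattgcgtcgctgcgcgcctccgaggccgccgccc
Atl3: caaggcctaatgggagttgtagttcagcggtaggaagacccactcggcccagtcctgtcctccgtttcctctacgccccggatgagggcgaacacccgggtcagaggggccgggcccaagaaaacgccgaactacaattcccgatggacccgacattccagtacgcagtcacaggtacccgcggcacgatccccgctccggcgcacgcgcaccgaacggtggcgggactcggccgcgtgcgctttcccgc
Rtn4: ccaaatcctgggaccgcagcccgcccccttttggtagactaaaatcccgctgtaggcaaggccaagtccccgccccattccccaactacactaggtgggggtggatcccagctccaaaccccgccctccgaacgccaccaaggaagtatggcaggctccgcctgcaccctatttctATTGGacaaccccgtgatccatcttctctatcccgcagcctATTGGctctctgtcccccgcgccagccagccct
G and C made up 67.2%, 65.6% and 61.2% of these windows for Rtn3, Atl3 and Rtn4. The Rtn4 window held 2 matches to CCAAT, both on the reverse strand, and the Rtn3 and Atl3 windows held 0. At least 1 match was present in 33.8% of the 32851 windows of the same length in the table. The letters of the E-box CACGTG (6.02% of all windows), of TGACGTCA, the cyclic AMP response element (1.55%), and of TTTGAA, the cell cycle homology region (16%), were in none of these 3 windows. A match is a run of letters and not evidence of binding.

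By library, Reep3 stood at 212, 171, 109 and 175 CPM for Glut1Tg (replicates 1 to 4 in order), against 80.5, 109, 72.4, 55.3 and 63.8 CPM for WT (replicates 1 to 5). Of the 4 Glut1Tg libraries, 3 lay above every WT library. The fourth, Glut1Tg replicate 3 at 108.99 CPM, lay just under WT replicate 2 at 109.47 CPM, so the genotypes overlapped at this edge. Of the 9 genes, 0 had all Glut1Tg libraries above or all below the WT libraries, patterns found in 1.01% and 0.58% of all tested genes. Glut1Tg libraries averaged 167 ± 42.5 CPM (SD, n = 4), and WT libraries 76.3 ± 20.8 CPM (SD, n = 5). With mouse group in the edgeR model the log2 fold change was 1.18 (SE 0.24), a 2.26-fold higher level in Glut1Tg.

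Within each mouse group the direction for Reep3 was the same, which adds no separate evidence, since Reep3 was chosen on these same libraries. In mouse group 1 the mean was 152 CPM over 3 Glut1Tg libraries and 76.4 CPM over 2 WT libraries, a 1.98-fold ratio. Of these 3 Glut1Tg libraries, replicates 2 and 4, which held Xist, stood at 171 and 175 CPM, and replicate 3 at 109 CPM. In mouse group 2 the single Glut1Tg library stood at 212 CPM and the 3 WT libraries averaged 76.2 ± 29.1 CPM (SD), a 2.78-fold ratio. Leaving out any single library moved the log2 fold change between 0.96 (without Glut1Tg replicate 1) and 1.297 (without Glut1Tg replicate 3). The lowest Reep3 value of the Glut1Tg libraries was thus in the library with the most mast cell transcripts, and the highest value of each genotype was in the library with the most mitosis transcripts. The part of these transcripts, or of sex, in the genotype values was not tested.

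In the order of the genotype p from the model with mouse group, the named genes around Reep3 were Cd200r1 and Hist1h3f before it and Gbp9 and Hist1h2bl after it. Their fitted log2 fold changes were -1.16 (SE 0.22) for the receptor gene Cd200r1, 1.82 (SE 0.37) for Hist1h3f, -1.43 (SE 0.31) for the GTPase gene Gbp9 and 1.72 (SE 0.38) for Hist1h2bl. The histone genes belong to a family of near-identical copies and were low, with means of 1.49 CPM in Glut1Tg and 0.552 CPM in WT for Hist1h3f, whereas Reep3 had at least 55.3 CPM in every library. By the size of its fold change Reep3 ranked 73 among 10183 genes with a mean of at least 5 CPM.

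For the other Reep genes the genotypes overlapped more widely than for Reep3. Reep4 had 100.4, 47.4, 74.4 and 52.1 CPM in Glut1Tg, against 45.6, 85.2, 50.9, 68.5 and 77.5 CPM in WT, in the same order of replicates. The genotypes overlapped over most of their range, and the fitted fold was 1.24 (95% interval 0.962 to 1.60). Reep5, a general tubule-shaping protein, had 212, 153, 234 and 159 CPM in Glut1Tg and 141, 198, 144, 144 and 131 CPM in WT. Here WT replicate 2 lay above 2 of the 4 Glut1Tg libraries, and the fitted fold was 1.305 (95% interval 0.981 to 1.74). Reep6, known for its role in rod photoreceptors, was near the limit of detection, with 1 to 70 counts per library in Glut1Tg and 6 to 31 in WT. It reached 2.80 CPM in Glut1Tg replicate 3 and 1.22 CPM in WT replicate 4 and stayed at or under 0.605 CPM in the other 7 libraries. Glut1Tg replicate 3 and WT replicate 4 also held the highest mast cell and basophil sums, 5345 and 2370 CPM. The part of this link in the Reep6 values was not tested. The fitted fold of Reep6 was 1.89 (95% interval 0.355 to 10.1), and without Glut1Tg replicate 3 its log2 fold change turned to -0.59 (SE 0.68).

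**Figure D1:**
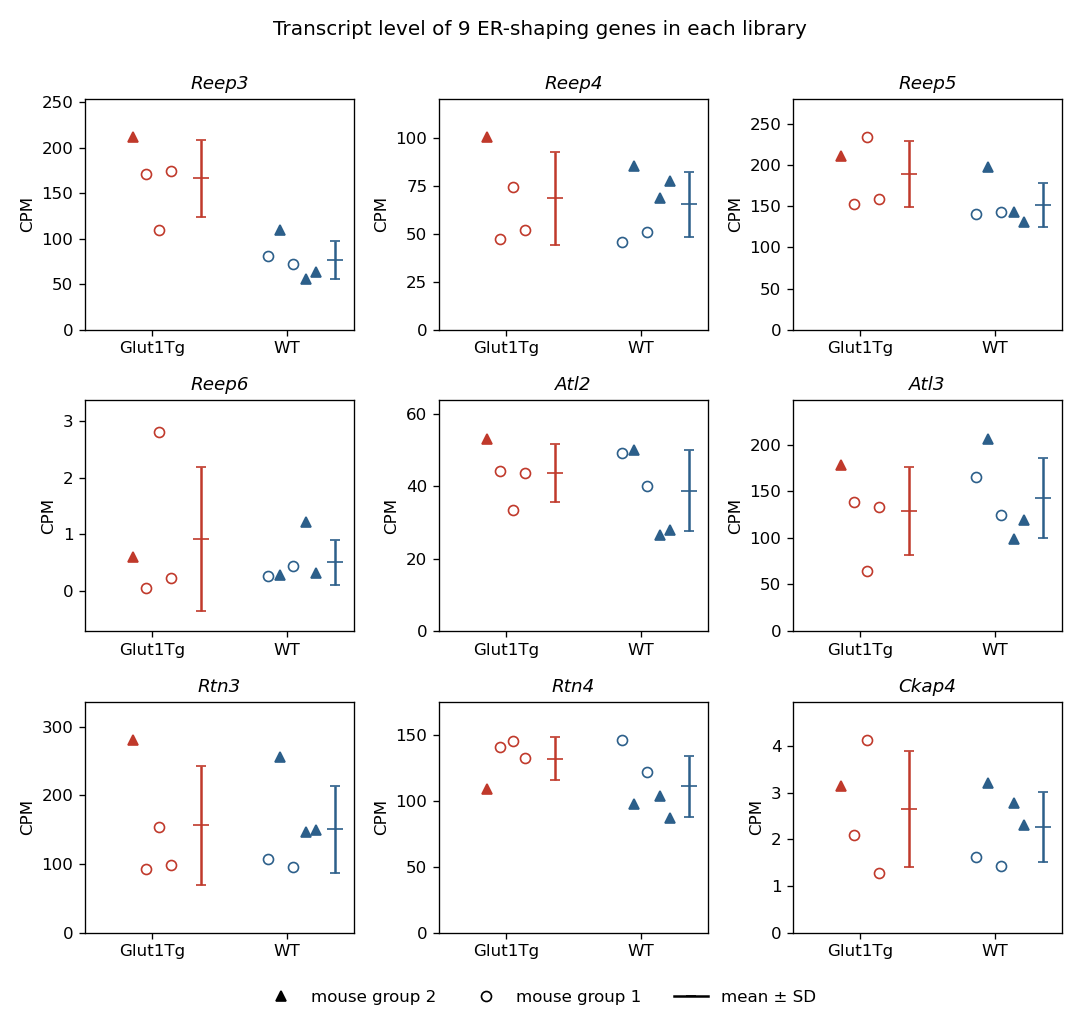
Transcript level of each gene in CPM (y axis) in Glut1Tg and WT libraries (x axis), with filled triangles for mouse group 2, open circles for mouse group 1 and bars for the mean and SD over 4 Glut1Tg or 5 WT libraries. Reep3 is the gene in which 3 Glut1Tg libraries (171 to 212 CPM) lie above all WT libraries (55.3 to 109 CPM), and Rtn4 is the gene in which the triangles lie below all circles.

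The libraries of the genotypes overlapped for both atlastins. Atl2 had 33.6 to 53.1 CPM in Glut1Tg and 26.5 to 49.9 CPM in WT, with a fitted fold of 1.117 (95% interval 0.767 to 1.63). The direction turned without Glut1Tg replicate 1 (log2 fold change -0.16). Atl3, which also serves as a receptor for autophagy of ER tubules, had 178, 139, 64.8 and 133 CPM in Glut1Tg, against 165, 206, 125, 99.1 and 119 CPM in WT. The lowest value of all libraries was that of Glut1Tg replicate 3, and the fitted fold was 0.939 (95% interval 0.583 to 1.51). The direction turned without Glut1Tg replicate 3 (log2 fold change 0.08) and without WT replicate 1 (0.06).

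Among the reticulons, Rtn3 had 280, 92.1, 154 and 98.8 CPM in Glut1Tg, against 107, 256, 95.4, 147 and 149 CPM in WT. Rtn4, also known as Nogo, had 109, 141, 145 and 133 CPM in Glut1Tg, against 146, 97.3, 122, 104 and 87.4 CPM in WT. Both ranges overlapped between genotypes, with fitted folds of 1.28 (95% interval 0.885 to 1.84) for Rtn3 and 1.08 (95% interval 0.902 to 1.29) for Rtn4. The sheet spacer Ckap4 was low, at 1.27 to 4.12 CPM in Glut1Tg and 1.42 to 3.21 CPM in WT, and its fitted fold was 1.42 (95% interval 0.779 to 2.60). Of the 8 genes other than Reep3, 0 were called for genotype by edgeR's quasi-likelihood test over 14817 genes, 0 by DESeq2 and 0 by limma-voom, and 0 had an unadjusted p under 0.05. Of all genes tested, 0.00675% were called by edgeR, namely Slc2a1 alone, and 889 genes had an unadjusted p under 0.05.

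The genotype difference of a gene could also depend on the mouse group, and an interaction term asked this. It was called for 0 of the 9 genes by edgeR (lowest adjusted p = 0.741) and for 0% of all tested genes, with 786 of them at an unadjusted p under 0.05. DESeq2 called 2 genes, none of the 9, and limma-voom called 0. For Reep3 the interaction was 0.49 on the log2 scale (95% interval -0.67 to 1.64), an interval that spans ratios of 0.628 to 3.12 between the mouse groups. Mouse group 2 held 1 Glut1Tg library, on which this term rests. Without WT replicate 2 the term called 140 genes, with 0 of the 9 among them (lowest adjusted p = 0.108).

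The mouse groups were compared next, a contrast that the choice of Reep3 in a model without mouse group did not use. Rtn3 and Reep4 were higher and Rtn4 was lower in mouse group 2, while Reep3, Reep5, Reep6, Atl2, Atl3 and Ckap4 did not pass. Rtn3 averaged 208 ± 69.9 CPM in mouse group 2 (SD, n = 4) and 109 ± 25.5 CPM in mouse group 1 (SD, n = 5), with a log2 fold change of 1.03 (SE 0.23; edgeR adjusted p = 0.0151). Reep4 averaged 82.9 ± 13.5 CPM in mouse group 2 and 54.1 ± 11.7 CPM in mouse group 1, with a log2 fold change of 0.72 (SE 0.16; edgeR adjusted p = 0.0147). Rtn4 averaged 99.4 ± 9.39 CPM in mouse group 2 and 137 ± 9.9965 CPM in mouse group 1, with a log2 fold change of -0.43 (SE 0.12; edgeR adjusted p = 0.0266).

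These 3 calls among 9 genes stand beside 24.1% of all tested genes (13.1% higher and 11% lower in mouse group 2), so the share is not particular to the ER-shaping genes. Rtn4 was the gene whose libraries did not overlap between mouse groups, at 87.4 to 109 CPM in mouse group 2 and 122 to 146 CPM in mouse group 1. Such a pattern, with mouse group 2 wholly below, was found in 11.4% of all genes. For Rtn3 and Reep4 the overlap came from Glut1Tg replicate 3 of mouse group 1, which at 154 and 74.4 CPM lay above the lowest libraries of mouse group 2, at 147 and 68.5 CPM.

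With 1 library left out at a time, Rtn3 and Reep4 passed in 8 of 9 fits and Rtn4 in 3. Leaving out Glut1Tg replicate 1 removes the only Glut1Tg library of mouse group 2. Without it the log2 fold changes were 0.86 (SE 0.30) for Rtn3, 0.67 (SE 0.21) for Reep4 and -0.48 (SE 0.15) for Rtn4. None of these log2 fold changes passed (edgeR adjusted p = 0.140, 0.109 and 0.113). Without both that library and WT replicate 2 they were 0.56, 0.61 and -0.48 (edgeR adjusted p = 0.230, 0.162 and 0.140), and over all genes there were 561 calls, against 3576 with all libraries. The Rtn4 call was also lost without Glut1Tg replicate 2 and without WT replicates 1, 2, 3 or 5, one at a time (edgeR adjusted p = 0.0526 to 0.100). Ckap4 passed without Glut1Tg replicate 3 (log2 fold change 0.90; edgeR adjusted p = 0.0336), against 0.66 (SE 0.39; edgeR adjusted p = 0.235) with all libraries.

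For Reep3 the mouse group log2 fold change was 0.19 (95% interval -0.36 to 0.74), for Reep5 0.18 (-0.23 to 0.59), for Atl2 -0.06 (-0.60 to 0.48), for Atl3 0.24 (-0.44 to 0.93) and for Reep6 0.15 (-2.27 to 2.57). The partner of Reep3 at its start site, Jmjd1c, was lower in mouse group 2 (177 ± 34.5 CPM against 400.2 ± 109 CPM; log2 fold change -1.17, SE 0.26; edgeR adjusted p = 0.0150). Its genotype log2 fold change was 0.04 (SE 0.26). Jmjd1c codes for a member of a histone demethylase family.

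**Figure D2:**
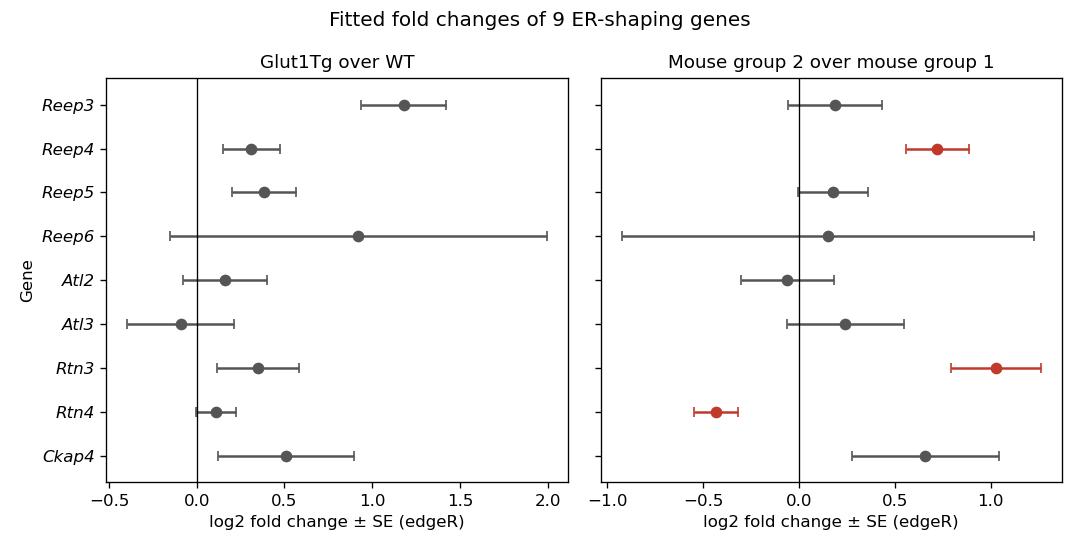
Log2 fold change and SE from edgeR for each gene (y axis), for Glut1Tg over WT on the left and mouse group 2 over mouse group 1 on the right, with genes that passed the mouse group test in red. Reep3 has a log2 fold change of 1.18 by genotype and 0.19 by mouse group, and Rtn3, Reep4 and Rtn4 are the red points at 1.03, 0.72 and -0.43.

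The mouse group difference of Rtn3 and Reep4 ran beside that of mitosis genes. Of 22 mitosis genes, 20 were higher and 0 were lower in mouse group 2 (edgeR, adjusted p under 0.05). Their median log2 fold change was 1.44, against -0.01 over all tested genes. Among them the kinase gene Plk1 averaged 121 ± 69.1 CPM in mouse group 2 and 28.1 ± 8.47 CPM in mouse group 1, and the topoisomerase gene Top2a 1100.0 ± 656 and 278 ± 66.6 CPM. The spindle checkpoint gene Bub1b averaged 176 ± 97.0 and 50.5 ± 12.9 CPM, and the kinesin gene Kif20a 148 ± 74.1 and 48.7 ± 8.75 CPM in the same order. Rtn3 was highest in Glut1Tg replicate 1 (280 CPM) and WT replicate 2 (256 CPM), which held the highest mitosis sums. WT replicate 4, with a mitosis sum of 2239 CPM inside the range of mouse group 1 (1409 to 2450 CPM), had 147 CPM of Rtn3, more than 4 of the 5 libraries of mouse group 1. The part of proliferation in these differences was not tested. Leaving out Glut1Tg replicate 1 and WT replicate 2 also removes the only Glut1Tg library of mouse group 2, so it cannot single out proliferation.

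**Figure D3:**
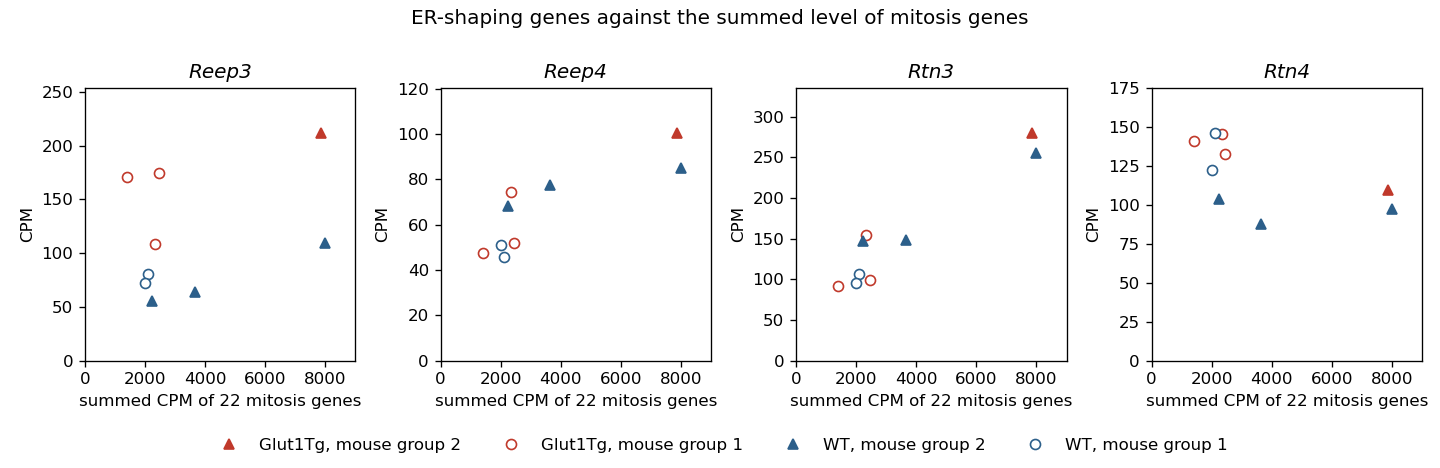
CPM of Reep3, Reep4, Rtn3 and Rtn4 (y axes) against the summed CPM of 22 mitosis genes (x axes) in 9 libraries, red for Glut1Tg, blue for WT, filled triangles for mouse group 2 and open circles for mouse group 1. The libraries at 7855 and 7990 CPM on the x axis hold the highest Reep4 and Rtn3 values, and at that level Reep3 is 212 CPM in the Glut1Tg and 109 CPM in the WT library.

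Ratios of read counts within a library do not depend on the scaling of totals, and were chosen after the values had been seen. A ratio of counts also reflects gene length (8.294 kb of exon for Reep3 and 3.151 kb for Reep5), so it is read across libraries and not as a ratio of levels. Reep3 had 0.999, 1.12, 0.465 and 1.099 counts per count of Reep5 in Glut1Tg, and 0.572, 0.552, 0.504, 0.385 and 0.486 in WT. The ratio was thus higher in 3 Glut1Tg libraries than in any WT library, and Glut1Tg replicate 3 lay inside the WT range. The 95% exact binomial interval of its ratio was 0.444 to 0.487, which covers counting error only. In that library Reep5 was at its highest (234 CPM) while Reep3 was at its lowest among the Glut1Tg libraries.

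Rtn3 had 2.56, 2.63, 1.42 and 1.70 counts per count of Rtn4 in the libraries of mouse group 2 (Glut1Tg replicate 1 and WT replicates 2, 4 and 5). In mouse group 1 the ratio was 0.653, 1.06 and 0.744 in Glut1Tg replicates 2 to 4 and 0.731 and 0.781 in WT replicates 1 and 3. The mouse groups did not overlap in this ratio. That adds no separate result, since Rtn3 and Rtn4 had already been called for mouse group in opposite directions. Against its neighbour Atl3, Rtn3 had 1.57, 1.24, 1.48 and 1.25 counts per count in mouse group 2, against 0.663, 2.38, 0.743, 0.647 and 0.765 in mouse group 1. The high value of mouse group 1 was again that of Glut1Tg replicate 3.

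**Figure D4:**
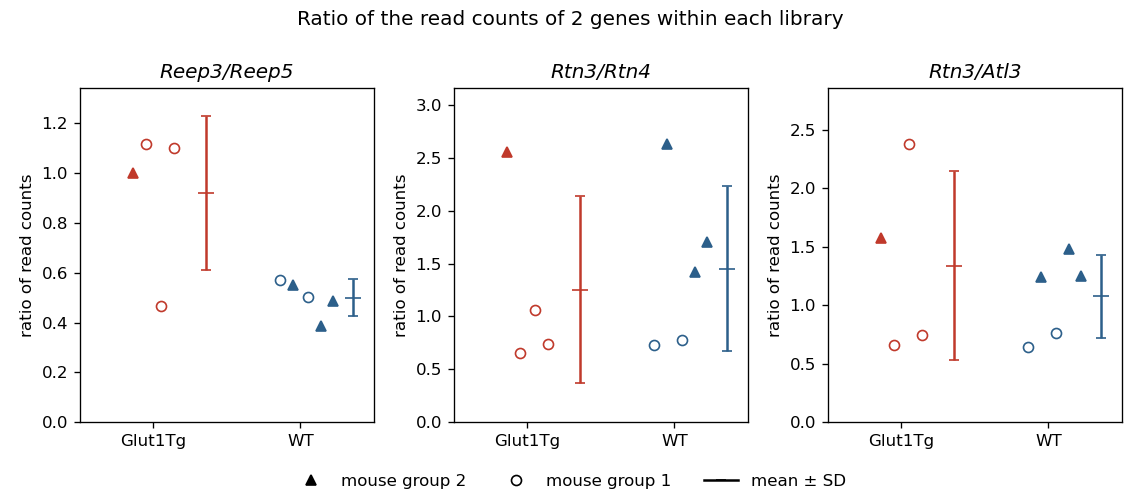
Ratio of read counts of Reep3 to Reep5, Rtn3 to Rtn4 and Rtn3 to Atl3 (y axes) within each Glut1Tg and WT library, with filled triangles for mouse group 2, open circles for mouse group 1 and bars for the mean and SD. Reep3 to Reep5 is near 1 in 3 Glut1Tg libraries and 0.385 to 0.572 in WT, and the triangles of Rtn3 to Rtn4 (1.42 to 2.63) lie above all circles (0.653 to 1.06).

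Levels of different genes were compared as CPM per kilobase of exon. In WT, Reep5 led with 48.1 ± 8.46 CPM per kb (SD, n = 5), before Rtn3 at 30.0 ± 12.6, Reep4 at 27.6 ± 7.14, Rtn4 at 15.9 ± 3.31, Atl3 at 14.1 ± 4.23 and Reep3 at 9.198 ± 2.51. Each of these overlapped the next over the libraries. Atl2 followed at 3.93 ± 1.13, Ckap4 at 0.734 ± 0.245 and Reep6 at 0.204 ± 0.160 CPM per kb. In Glut1Tg, Reep3 stood at 20.1 ± 5.13 CPM per kb (SD, n = 4) in the fourth place, between Reep4 at 28.9 ± 10.2 and Rtn4 at 18.9 ± 2.30, and overlapped both. The other 8 genes were in the same order as in WT. Neighbours in the order were free of overlap for Atl2 and Ckap4 in both genotypes, for Atl3 and Atl2 in Glut1Tg and for Reep3 and Atl2 in WT.

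The 9 genes did not move as a block across libraries. Among 36 pairs, Pearson's r of log2 CPM over the 9 libraries was highest for Reep4 with Rtn3 (0.94, and also 0.94 over the 7 libraries without Glut1Tg replicate 1 and WT replicate 2). Next came Reep4 with Ckap4 (0.78, and 0.75 over 7 libraries), Rtn3 with Ckap4 (0.75 and 0.81) and Atl2 with Atl3 (0.74 and 0.61). The lowest r was -0.69 over 9 libraries, for Reep6 with Atl3, and -0.91 over 7 libraries, for Reep4 with Atl2. Over 9 libraries Reep3 was most like Atl2 (0.70), then Reep5 (0.55), and had an r of 0.35 with Rtn4 and 0.11 with Reep4. Over the 7 libraries it was most like Rtn4 (0.65), then Atl2 (0.63) and Reep5 (0.39), and its r with Reep4 was -0.45. These values describe 9 libraries that share genotype, mouse group and the libraries that stand apart, and carry no p.

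By the same measure the genes most like Reep3, among 9557 with at least 5 CPM on average and a symbol that is not predicted, were Eif2s3x (r = 0.92 over 9 libraries), Ppard (0.90), Ctbp1 (0.90), Pus1 (0.89), Sec61a1 (0.88), Med27 (0.88), Nt5c3b (0.87) and Nubp2 (0.87). Slc2a1 ranked 12 (0.86). The order depended on the measure: by Spearman's rho Ppard ranked 1, Eif2s3x and Sec61a1 14, Med27 23, Pus1 and Nubp2 35, Ctbp1 110, Nt5c3b 180 and Slc2a1 264. Eif2s3x, the X-linked gene of a translation initiation factor subunit, had 247, 271, 221 and 280 CPM in Glut1Tg and 202, 220, 154, 159 and 149 CPM in WT. All Glut1Tg libraries thus lay above the WT libraries, a pattern given above for 1.01% of genes. That adds no separate result, since Eif2s3x was picked for its likeness to Reep3, which was itself chosen on genotype. Eif2s3x is known to escape X inactivation. Xist, the RNA of the inactive X chromosome, stood at 256 and 340.2 CPM in Glut1Tg replicates 2 and 4 and at no more than 1.32 CPM in the other 7 libraries. Reep3, which is autosomal, had 171 and 175 CPM in those libraries, and 212 and 109 CPM in the other Glut1Tg libraries. The part of sex was not tested. Sec61a1, the channel subunit through which new proteins enter the ER, had 254, 209, 210.1 and 213 CPM in Glut1Tg and 192, 221, 193, 167 and 164 CPM in WT.

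The genes near Reep3 on chromosome 10 were listed after its values had been seen. Within 500 kb, the genotype log2 fold change was -0.02 (SE 0.11) for Nrbf2, 0.07 (SE 0.25) for Egr2, 0.39 (SE 0.17) for Ado and 0.67 (SE 0.39) for 1110002J07Rik, besides Jmjd1c as given above, and none of these was called by edgeR. Ado, a thiol dioxygenase gene, averaged 33.9 ± 3.31 CPM in Glut1Tg and 23.9 ± 6.64 CPM in WT.

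Other genes of the ER were taken from lists and give the setting in which the 9 genes stand. In each of these lists 0 members passed the genotype test by edgeR over all genes. The counts called by mouse group are read against the 24.1% of all tested genes, and those at an unadjusted genotype p under 0.05 against 889 of 14817. A further list held 24 genes linked to ER tubules, not all of which shape them, since it includes reticulon partners and receptors such as Rtn4ip1 and Rtn4rl1. Of these, 22 were tested, with a median genotype log2 fold change of 0.10 against 0.02 over all tested genes. By mouse group 4 of the 22 were higher and 2 lower, beside 13.1% higher and 11% lower among all genes. These included Rab3gap1 (104 ± 7.59 CPM in mouse group 2 and 70.5 ± 3.81 CPM in mouse group 1; log2 fold change 0.54), part of the activator of the ER GTPase Rab18, and Arl6ip1, a hairpin protein (480 ± 120 and 300.1 ± 33.9 CPM; 0.72). The reticulon partner Rtn4ip1 had a log2 fold change of 1.00, and Pgrmc1, a membrane heme-binding protein, was lower (50.6 ± 5.51 and 86.7 ± 18.1 CPM; -0.68).

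Of 21 genes of ER sheets and the protein translocation channel, 18 had a positive genotype log2 fold change, and 5 had an unadjusted p under 0.05. Their median log2 fold change was 0.30, against 0.02 over all tested genes. By mouse group 1 was higher, the signal recognition particle receptor gene Srprb (27.4 ± 6.01 CPM in mouse group 2 and 17.2 ± 2.24 CPM in mouse group 1; log2 fold change 0.76), and 1 was lower, Sec63 (107 ± 7.79 and 148 ± 10.04 CPM; -0.46). The sheet and translocon genes summed to 3309, 2409, 3227 and 2347 CPM in Glut1Tg and to 2286, 2895, 2239, 2190 and 1986 CPM in WT. Of 9 receptors of ER autophagy, a list that holds Rtn3 and Atl3, 1 had a positive genotype log2 fold change (median -0.11), namely Rtn3. By mouse group Rtn3 was higher and Fam134c was lower (164 ± 29.8 and 209 ± 22.8 CPM; -0.45).

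Lipid supply genes of the ER membrane, 25 tested, had a median genotype log2 fold change of 0.10, with 3 of 25 higher and 5 lower by mouse group, beside 24.1% of all genes in either direction. The choline and ethanolamine phosphotransferase gene Cept1 was higher (58.2 ± 7.46 CPM in mouse group 2 and 28.2 ± 1.66 CPM in mouse group 1; log2 fold change 1.05), as was Agpat1 (0.69). The phosphatidate phosphatase genes Lpin1 (33.5 ± 4.98 and 96.7 ± 30.6 CPM; -1.66) and Lpin2 (39.7 ± 6.11 and 77.4 ± 4.34 CPM; -0.98) were lower. Of 25 genes of ER contact sites, with a median genotype log2 fold change of -0.02, 5 were higher and 2 lower by mouse group, again beside 24.1% of all genes. Among them were the sterol carrier gene Osbp (0.56), the calcium sensor gene Stim2 (0.49), Rmdn3 (1.05) and the tether gene Esyt1 (0.79). Of 24 ER chaperone and stress genes, 18 had a positive genotype log2 fold change, with a median of 0.34 against 0.02 over all tested genes. An unadjusted edgeR p under 0.05 was found for 5 of them. It was found for 5 sheet and translocon, 2 contact site, 1 tubule-linked, 0 ER autophagy and 0 lipid supply genes. The chaperone genes summed to 5827, 3683, 4902 and 3717 CPM in Glut1Tg and to 3781, 4962, 3648, 3303 and 3102 CPM in WT. Like the sheet and translocon sums, these were highest in Glut1Tg replicates 1 and 3 and WT replicate 2, which stood apart above. Of the 24 chaperone and stress genes, 3 were higher and 4 lower by mouse group, beside 24.1% of all genes. The chaperone gene Pdia4 (1.59) and the ubiquitin ligase gene Syvn1 (0.62) were higher, and Herpud1 (-0.53) and Dnajb9 (-1.67) were lower. Mitosis genes had a median genotype log2 fold change of 0.32, with 22 of 22 positive and 0 of 22 at an unadjusted edgeR p under 0.05. Of the tested mast cell and basophil genes 9 of 12 were positive (median 0.38), and of the myeloid genes 10 of 12 (median 0.34). Positive values were thus not particular to the ER lists. In the ER lists, genes given as higher or lower by mouse group are edgeR calls at an adjusted p under 0.05.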

How the data were processed

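Messenger RNA of 9 libraries was made with a stranded kit and read as 75 bp pairs, per the labels' protocols. The submitters' processing notes name bcl2fastq, TopHat2, featureCounts, DESeq2 and mm10, with no versions and no strand setting for the counting. The raw counts per gene were deposited by the authors without normalization. A deposited table of log2 values for 13700 genes is relative to WT replicates 1 and 3, from its values, and served as an alternative. Of 28111 genes, 14817 passed edgeR's filterByExpr by genotype, including all 9 described. Counts were fitted with edgeR 4.0.16 (R 4.3.3; TMM, quasi-likelihood, two-sided) on mouse group and genotype, with Benjamini-Hochberg adjustment over all tested genes and a threshold of 0.05. CPM used TMM-scaled totals, and lengths were GENCODE M21 exon unions. Likeness is Pearson's r of log2 CPM (prior count 2). DESeq2 1.42.0, limma 3.58.1, left-out libraries and a replicate block were alternatives. Named genes were the 9 members, the 8 most like Reep3, its neighbours in the order of genotype p, and up to 4 called genes of each ER list. The members and lists were chosen with earlier results of these data known. The fits were tested on simulated data. Replicate numbers were not taken as pairs in the main fits.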

Additional observations from a re-analysis of the deposited data

Results flagged for a closer look

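In each genotype the highest and lowest library of every gene was set against its nearest neighbour, and chance flags about 1 in 20 of such groups. Of 18 groups, 2 held a library that stood apart. Reep5 was 198.408 CPM in WT replicate 2, with the next WT library at 144 CPM. Reep6 was 1.21532 CPM in WT replicate 4, with the next WT library at 0.447 CPM.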

How the results depend on the processing

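The genotype log2 fold change of Reep3 was positive under every alternative, from 0.96 to 1.297. Over all genes, genotype called 1 gene, and 2 with no filter on low counts, 7 with DESeq2, 0 without both Glut1Tg replicate 1 and WT replicate 2, and 1 to 2 with single libraries left out. Mouse group called 3576 genes, 561 without both libraries (480 of them shared), and 651 to 4575 with single libraries left out. The lowest was without Glut1Tg replicate 1, with 1901, 2124 and 1958 without WT replicates 1, 2 and 3. Of the 9 genes, 3 were called for mouse group, 0 without both libraries, and 0 to 4 with single libraries left out. The interaction called 0 genes, 2 with DESeq2 and 0 to 140 with single libraries left out, the most without WT replicate 2; it could not be estimated without Glut1Tg replicate 1. Rtn4 was not called for mouse group with no filter on low counts (adjusted p = 0.0986).

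Same-numbered libraries of replicates 1 to 4 deviated from their genotype means with r of -0.51, -0.59, 0.23 and -0.21. Those of replicates 1, 2 and 4 were in different mouse groups, so these values cannot show whether the numbers pair the libraries. With a replicate block, genotype, mouse group and interaction called 0 genes, and the Reep3 genotype log2 fold change was 1.09. The block fits many terms to 9 libraries, so 0 calls there cannot show that differences are absent. With it the mouse group log2 fold changes were 1.25 for Rtn3, 0.91 for Reep4 and -0.41 for Rtn4. Without Glut1Tg replicate 3 the genotype log2 fold change of Reep6 was -0.59. Of 150 mouse group log2 fold changes of single genes, 122 kept direction and side of the threshold, 15 lost the call, 1 gained it and 12 changed sign, all 12 of them uncalled with and without the change. With 1 library or both libraries left out, the mouse group log2 fold change was -0.35 to 0.31 for Reep3, -0.033 to 0.27 for Reep5, -0.18 to 1.17 for Reep6, -0.69 to 0.076 for Atl2 and -0.40 to 0.400 for Atl3. The lowest value was that without both libraries for Reep3, Reep5, Atl2 and Atl3. In a model with no genotype term the value was -0.14 for Reep3 and -0.33 for Reep6. The genotype value of Atl2 was -0.16 without both. The cause was not tested. Reep6 and Ckap4 are limited by depth.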
